A study of Homo sapiens with 30 samples.

Results

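This account describes how a cell line carrying the WDM form of a transgene differed from its WT partner line before the transgene was switched on. Both are Flp-In T-REx HEK293 lines. HEK293 is an established human embryonic kidney line, described by the submitters as epithelial. Its Flp-In T-REx version accepts a transgene at a prepared genomic site and expresses it when tetracycline is given. The WT line carries GFP fused to the normal TIA1a protein, and the WDM line carries GFP fused to TIA1a with the mutation of Welander distal myopathy, a late-onset muscle disease. The samples were chosen by title: the 3 cytosol libraries of each line whose titles name neither tetracycline nor arsenite, which makes 6 of the 30 libraries of the series. These 6 received no tetracycline and no arsenite. The other 12 cytosol libraries, 3 for each line with tetracycline and 3 for each line with tetracycline followed by 0.5 mM sodium arsenite for 60 min, served to estimate the spread and as a second look at the same line difference. The labels do not say whether each line is 1 clone or a pool of clones, nor whether the 3 libraries of a line came from separate cultures, so the p-values measure only the spread between these libraries, which may be technical. Libraries of the parental line were not analysed here.

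HEK293 cells are known to mix kidney, neuronal and adrenal traits and to carry a rearranged genome with gains and losses of chromosome segments. Which lineage a cell belongs to is set by transcription factors, such as the HOX and other homeobox proteins, and shows in its keratins, surface receptors, ion channels and matrix. TIA1 itself binds AU-rich and U-rich RNA, regulates splicing and translation, and helps build stress granules.

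Total counts were 9500101 to 10362221 per library in WT and 11433211 to 14339211 in WDM, so each WDM library was the deeper. Levels are given as CPM, counts scaled to a common total per library, in the order of replicates 1, 2 and 3. The first principal component of the 6 libraries held 61.1% of the variance and separated the lines, and the second (11.8%) set WT replicate 1 apart from the other libraries. A gene was called when its edgeR quasi-likelihood p, adjusted by Benjamini-Hochberg over 16670 genes in a fit of all 18 cytosol libraries, was under 0.05. TIA1 itself could not be used to check the labels. It had at most 1 count in any of the 6 libraries, and missing counts cannot be told apart from missing expression. Its paralog TIAL1 had 70.5, 58.6 and 61.6 CPM in WT and 67.2, 70.4 and 69.1 CPM in WDM, and the difference was not called (log2 fold change 0.08, SE 0.138, edgeR adjusted p 0.764).

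The lines differed at 1631 genes, 9.78% of those tested. Of these, 698 were higher in WDM (4.19% of tested genes) and 933 lower (5.6%). Of the called genes, 635 (38.9%) had an absolute log2 fold change under 0.5 and 405 had one of at least 1, of which 206 were higher and 199 lower. The libraries of the lines did not overlap for 1626 of the 1631 called genes, and for 7344 of all 16670, which is 44.1%. Leaving out 1 of the 6 libraries lowered the number of calls to between 929 (without WT replicate 3) and 1212 (without WT replicate 1). Without WT replicate 2 it was 991, and without WDM replicates 1, 2 and 3 it was 1044, 959 and 1056. A fit of the 6 untreated libraries alone, with a smaller estimated spread, called 5463 genes. Calls with a log2 difference of 1 or more in size stayed between 317 and 362. Every gene named below as higher or lower with its own value kept its call in all 6 of those fits. This does not cover the 2 genes flagged near the end. Where the calls of a list changed by over 1.5 times, all 6 values are given, first without WT replicates 1, 2 and 3 and then without WDM replicates 1, 2 and 3.

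**Figure D1:**
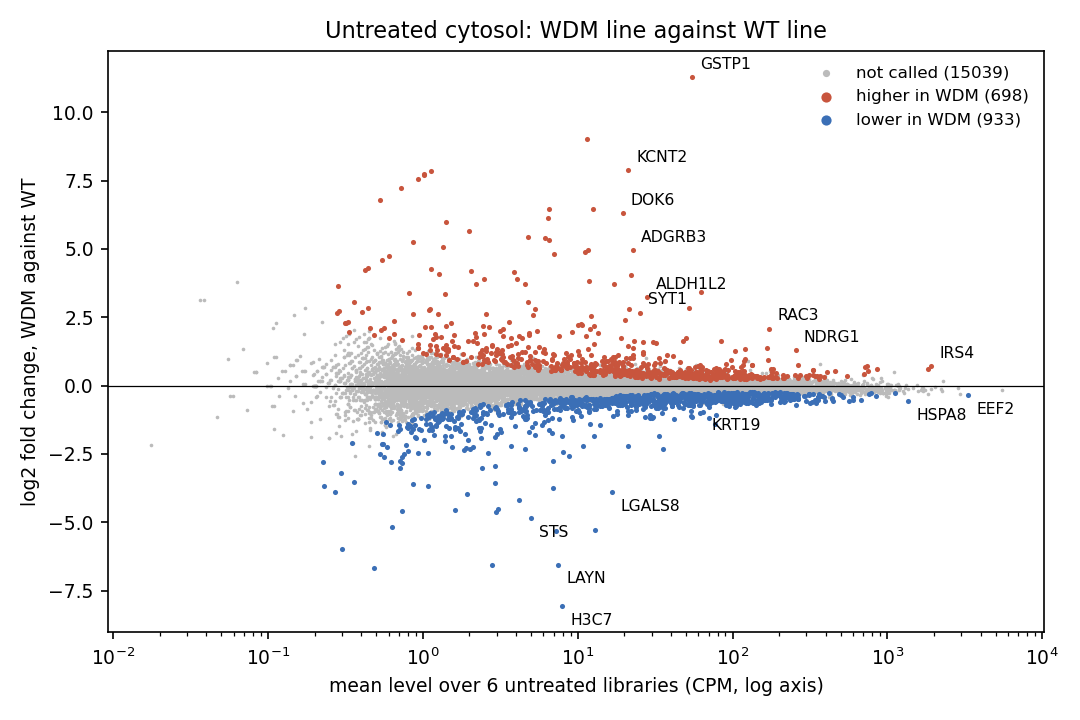
Each point is 1 of the 16670 genes tested, with its mean level over the 6 untreated libraries (CPM, log axis) against its log2 fold change in WDM relative to WT. Red points are the 698 genes called higher in WDM and blue points the 933 called lower. GSTP1 lies highest and H3C7 lowest.

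The widest differences lay between expression and its near absence. In 58 called genes every library of the lower line had 3 counts or fewer, 39 of them higher and 19 lower in WDM, and 7 of the 58 reached 5 CPM in the other line. GSTP1, a glutathione S-transferase that conjugates glutathione to electrophiles (chromosome 11, 67583742 to 67586656), had 0.0985, 0 and 0 CPM in WT and 110.0, 109.8 and 107 CPM in WDM. With 1 count in WT and 4293 in WDM the ratio of depth-scaled counts could not be set more closely than 587 to 129300 (95% exact interval, counting error only; edgeR adjusted p 2.78e-17). KCNT2, a sodium-activated potassium channel subunit (chromosome 1, 196225779 to 196609225), had 0.197, 0.316 and 0 CPM in WT and 41.8, 44.0 and 40.7 CPM in WDM (ratio 254, interval 108 to 782, edgeR adjusted p 4.40e-10). The noncoding RNA KC6 had a ratio of 96.5 (interval 37.4 to 355) and PRR16 of 76.6 (32.6 to 237). ZNF804A, a zinc-finger gene with 1 count in WT and 907 in WDM, had a ratio between 124 and 27350. These 5 genes were thus present in all 3 WDM libraries and had 3 counts or fewer in each WT library.

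Other genes were low but counted in WT. DOK6, an adaptor protein of receptor tyrosine kinase signalling (chromosome 18, 69400888 to 69849087), had 0.591, 0.526 and 0.289 CPM in WT and 39.4, 39.4 and 36.8 CPM in WDM (log2 fold change 6.30, SE 0.258, edgeR adjusted p 9.23e-13). ADGRB3, an adhesion receptor of synapses, had 1.28, 1.58 and 1.25 CPM in WT and 44.3, 48.1 and 39.3 CPM in WDM (log2 fold change 4.96, SE 0.475, edgeR adjusted p 4.40e-06). CHRM3, the M3 muscarinic acetylcholine receptor, had 0.690, 0.947 and 0.482 CPM in WT and 20.6, 22.8 and 24.5 CPM in WDM (log2 fold change 4.96, SE 0.341, edgeR adjusted p 4.05e-09). The noncoding RNAs LINC01036 and LINC02506 were higher in WDM by log2 6.47 and 4.04. The first of these had 0.197, 0.210 and 0.386 CPM in WT and 23.6, 28.6 and 22.7 CPM in WDM.

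In the opposite direction, H3C7 and ZNF738 had 2 counts each over the 3 WDM libraries. H3C7, a replication-dependent histone H3 gene (chromosome 6, 26250142 to 26250635), had 14.1, 18.0 and 15.4 CPM in WT and 0.0697, 0.0736 and 0 CPM in WDM (WT to WDM ratio 311, interval 85.6 to 2574, edgeR adjusted p 9.18e-10). Histone H3 genes are nearly identical, and their reads can be split among copies. LAYN, a membrane receptor for hyaluronan (chromosome 11, 111540280 to 111561745), had 14.7, 16.0 and 13.7 CPM in WT and 0.279, 0.147 and 0 CPM in WDM (log2 fold change -6.55, SE 0.351, edgeR adjusted p 4.26e-11). LGALS8, a sugar-binding galectin (chromosome 1, 236518000 to 236552981), had 32.7, 29.2 and 31.9 CPM in WT and 2.65, 1.77 and 2.01 CPM in WDM (log2 fold change -3.89, SE 0.190, edgeR adjusted p 8.67e-12). ZNF22 and ZNF600, both zinc-finger genes, were lower at log2 -5.31 and -4.62, and LRRN1, a leucine-rich neuronal membrane protein, at log2 -2.94. Each of these was detected in every WT library. None of their WDM libraries reached the lowest WT library, which was a condition for naming them.

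A run of neighbours near the end of the short arm of chromosome X was lower together. PUDP, a pseudouridine phosphatase (chromosome X, 6667865 to 7148158), had 12.8, 13.7 and 12.3 CPM in WT and 1.40, 0.589 and 0.875 CPM in WDM (log2 fold change -3.77, SE 0.355, edgeR adjusted p 5.91e-07). Next to it, STS, the steroid sulfatase gene (chromosome X, 7147237 to 7804358), had 10.2, 10.3 and 8.40 CPM in WT and 0.488, 0.147 and 0.350 CPM in WDM (log2 fold change -4.86, SE 0.482, edgeR adjusted p 1.57e-06). Farther along, ANOS1, a matrix protein of axon guidance that is mutated in Kallmann syndrome (chromosome X, 8528874 to 8732137), had 117, 108 and 93.8 CPM in WT and 49.1, 50.4 and 54.0 CPM in WDM (log2 fold change -1.09, SE 0.0926, edgeR adjusted p 4.85e-08). TBL1X, the next of the tested genes (chromosome X, 9463320 to 9741037), had 32.2, 30.9 and 34.0 CPM in WT and 46.3, 48.1 and 49.8 CPM in WDM and was not called (log2 fold change 0.53, SE 0.272, edgeR adjusted p 0.249). The first 3 of these 4 neighbours were lower in WDM, with the smaller fold at ANOS1, and the fourth had a higher mean in WDM.

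Among abundant transcripts the folds were smaller and the counts large. IRS4, an insulin receptor substrate that HEK293 cells are known to express strongly, had 1472, 1406 and 1384 CPM in WT and 2339, 2401 and 2434 CPM in WDM (log2 fold change 0.72, SE 0.116, edgeR adjusted p 0.000262). EIF2S3, the gamma subunit of the initiation factor eIF2, had 686, 675 and 650.5 CPM in WT and 1023, 1042 and 1065 CPM in WDM (log2 fold change 0.60, SE 0.104, edgeR adjusted p 0.000499). RBBP7, a histone-binding subunit of chromatin complexes, had 559, 548 and 529 CPM in WT and 866, 899 and 906 CPM in WDM (log2 fold change 0.67, SE 0.0945, edgeR adjusted p 4.82e-05). These 3 genes lie on chromosome X, whose genes at 5 CPM or more as a whole had a median log2 fold change of -0.046, with 26 called higher and 48 lower. RAC3, a small GTPase, had 61.5, 59.5 and 71.4 CPM in WT and 276, 286 and 273 CPM in WDM (log2 fold change 2.08, SE 0.135, edgeR adjusted p 1.10e-09). BCAT1, which transaminates branched-chain amino acids, had 389.6, 366 and 360.4 CPM in WT and 532, 529.5 and 570.5 CPM in WDM (log2 fold change 0.51, SE 0.0760, edgeR adjusted p 9.02e-05). On the lower side, DHX9, an RNA helicase, had 751, 784 and 813 CPM in WT and 525, 530.2 and 628 CPM in WDM (log2 fold change -0.51, SE 0.116, edgeR adjusted p 0.00584). The mitochondrial elongation factor TUFM had 498, 529.6 and 548 CPM in WT and 369.5, 360.3 and 359 CPM in WDM (log2 fold change -0.57, SE 0.0982, edgeR adjusted p 0.000538), and it lies in a stretch of chromosome 16 described below. Each of these genes separated the lines without overlap, which was a condition for naming it.

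Zinc-finger genes of the ZNF series, mostly DNA-binding repressors of the KRAB class, formed the family with the most calls. Of 421 tested, 14 were higher and 40 lower in WDM, or 12.8% called, with a median log2 fold change of -0.01, against 9.78% and a median of 0.00 over all genes. Fits with 1 library left out gave 5 to 8 higher and 34 to 36 lower calls in the family, and 5 of the 14 and 33 of the 40 were called in all 6 of them. For the higher calls this is a fall of over 1.5 times whichever library is dropped. The cluster on chromosome 19 between 19 and 24 Mb held 31 tested ZNF genes. Of these 9 were lower and 0 higher; the same counts were found when any 1 library was dropped. ZNF486 had 9.26, 6.42 and 7.91 CPM in WT and 0.418, 0.515 and 0.350 CPM in WDM (log2 fold change -4.20, SE 0.330, edgeR adjusted p 1.34e-08). ZNF730 had 5.62, 6.53 and 5.40 CPM in WT and 0.558, 0.0736 and 0.0875 CPM in WDM (log2 fold change -4.51, SE 0.406, edgeR adjusted p 1.15e-07), and ZNF257 had 5.42, 5.89 and 4.92 CPM in WT and 0.628, 0.442 and 0.262 CPM in WDM (log2 fold change -3.58, SE 0.295, edgeR adjusted p 3.06e-08). ZNF738, whose exons overlap a neighbouring gene in part, had a WT to WDM ratio of 109.5 (95% exact interval 29.8 to 912). The other five are named here after their values were seen: ZNF676, ZNF93 and ZNF253 were lower at log2 -3.96, -3.66 and -2.77, and ZNF726 and ZNF43 at -1.12 and -1.01. ZNF43 had 45.8, 48.2 and 46.2 CPM in WT and 24.6, 22.3 and 24.1 CPM in WDM. Among the 22 that were not called, ZNF714 had 89.5, 87.4 and 84.2 CPM in WT and 89.3, 88.6 and 90.5 CPM in WDM, ZNF431 had 40.9, 37.0 and 36.8 CPM in WT and 41.6, 46.5 and 43.1 CPM in WDM and ZNF91 had 63.8, 57.8 and 59.2 CPM in WT and 66.5, 66.3 and 62.8 CPM in WDM. Genes near silence in WDM therefore stood among neighbours whose levels were similar in both lines.

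The start regions of genes in this cluster are close relatives, which is why a few are shown together. RefSeq (GRCh38.p14) gave a promoter entry for 25 of the 31 tested genes, 6 of them called lower and 19 not called. The 8 letters CCAATCAG (CTGATTGG on the other strand), which hold a CCAAT box and were picked after these sequences had been seen, were searched on both strands in the 250 bases before the start. They occurred in 6 of 6 called genes and in 19 of 19 genes that were not called, against 3.98% of 27305 promoters in the table. At least 2 matches occurred in 4 of the 6 and in 9 of the 19, against 0.505% of all promoters. The median number of CG dinucleotides was 9.5 in the called genes, 8.0 in those not called and 11.0 over all promoters. Below are 100 bases that end at the base before the start, 5′ to 3′ on the gene's strand, with the matches in capitals. They belong to 5 genes that were lower, ZNF486 (chr19:20167114-20167213, plus strand), ZNF257 (chr19:22052384-22052483, plus strand), ZNF730 (chr19:23116925-23117024, plus strand), ZNF726 (chr19:23914786-23914885, plus strand) and ZNF43 (chr19:21836183-21836282, minus strand), and 3 that were not called, ZNF714 (chr19:21082103-21082202, plus strand), ZNF431 (chr19:21141940-21142039, plus strand) and ZNF91 (chr19:23395472-23395571, minus strand).
ZNF486: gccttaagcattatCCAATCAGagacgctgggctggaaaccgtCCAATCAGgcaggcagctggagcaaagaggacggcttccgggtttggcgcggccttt
ZNF257: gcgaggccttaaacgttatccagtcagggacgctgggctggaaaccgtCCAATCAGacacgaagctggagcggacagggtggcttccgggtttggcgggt
ZNF730: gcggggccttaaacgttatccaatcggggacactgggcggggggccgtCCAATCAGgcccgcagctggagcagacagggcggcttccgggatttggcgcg
ZNF726: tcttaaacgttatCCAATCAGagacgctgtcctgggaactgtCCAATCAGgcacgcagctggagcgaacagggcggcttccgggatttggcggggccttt
ZNF43: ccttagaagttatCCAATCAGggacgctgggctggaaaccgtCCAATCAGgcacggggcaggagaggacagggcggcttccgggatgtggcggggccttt
ZNF714: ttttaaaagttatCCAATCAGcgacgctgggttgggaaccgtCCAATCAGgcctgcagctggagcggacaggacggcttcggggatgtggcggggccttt
ZNF431: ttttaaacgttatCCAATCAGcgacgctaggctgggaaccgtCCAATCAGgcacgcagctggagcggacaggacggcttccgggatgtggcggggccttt
ZNF91: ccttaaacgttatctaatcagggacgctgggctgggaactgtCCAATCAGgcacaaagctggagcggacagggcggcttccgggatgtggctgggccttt
Genes with 2 matches (ZNF486, ZNF726, ZNF43, ZNF714 and ZNF431) and with 1 match (ZNF257, ZNF730 and ZNF91) were found among both the lower and the uncalled genes. A match is a description of the letters and not a measured binding site.

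The line difference was also followed along the chromosomes, in runs of 10 Mb with at least 10 genes at 5 CPM or more. Of 292 runs, 217 (74.3%) had a median log2 fold change within 0.1 of 0. A median of at least 0.3 in either direction, given here as a description, was found in 9 runs, 6 lower and 3 higher in WDM. Those 9 runs held 475 tested genes, of which 46.5% were called, against 8.71% of the other tested genes. They held 19.2% of all lower calls and 6.02% of all higher calls. The runs were chosen by their medians in the same 6 libraries, so these shares follow in part from the choice.

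Among the lower runs, 3 were adjacent, on chromosome 16 from 10 to 40 Mb, with medians of -0.502, -0.440 and -0.496 over 48, 59 and 43 genes. In the first of these, all 48 genes had a negative log2 fold change and 31 were called lower. Relative to the mean of the WT libraries, the 3 WT libraries had medians of -0.011, 0.014 and 0.017 there and the 3 WDM libraries -0.445, -0.506 and -0.457. TUFM, UQCRC2, NDUFAB1, RPS15A and PLK1, all on this chromosome and called lower, had log2 fold changes of -0.57, -0.54, -0.50, -0.50 and -0.46. At the end of chromosome 3 (190 to 200 Mb) the median was -0.550 over 42 genes, of which 40 were lower and 32 called lower, among them RPL35A (log2 -0.58) and TFRC (log2 -0.62). The start of chromosome 8 (0 to 20 Mb) had medians of -0.360 and -0.376 in its first and next run, with FDFT1, squalene synthase, at log2 -0.49. Of the 42 genes on the end of chromosome 3, 1 was called higher, OSTN, a secreted peptide of muscle and bone chosen after its values were seen (4.04, 3.47 and 2.70 CPM in WT and 8.72, 8.54 and 8.92 CPM in WDM, log2 1.32). In the other 5 lower runs, at most 1 gene had a positive log2 fold change and 0 were called higher.

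The 3 higher runs lay on chromosome 20 from 0 to 10 Mb (median 0.304 over 53 genes) and 10 to 20 Mb (0.345 over 25 genes) and on chromosome 21 from 10 to 20 Mb (0.673 over 11 genes). Smaller shifts extended over longer stretches. Every run on chromosome 2 from 0 to 140 Mb had a negative median, from -0.261 to -0.100, and every run from 140 Mb to its end a positive one, from 0.061 to 0.174. With tetracycline the first stretch stayed negative in every run (-0.165 to -0.035), and the medians of the second ranged from -0.121 to 0.191. With arsenite the ranges were -0.170 to -0.035 and -0.183 to 0.077, so the second stretch was not positive throughout in either condition. On chromosome 20 every run from 20 Mb to its end had a negative median, from -0.240 to -0.142. In the other conditions these runs lay beyond 0.3 in size, from -0.429 to -0.383 with tetracycline and from -0.492 to -0.382 with arsenite. The first 10 Mb of chromosome 19 had a median of -0.229 over 151 genes, of which 52 were called lower and 3 higher. On chromosome 8 from 20 to 30 Mb the median was 0.002, with 18 genes called lower and 0 higher. The stretches on chromosomes 20, 19 and 8 were added after their values were seen. In each of the 9 shifted runs the medians of the 3 WDM libraries did not overlap those of the 3 WT libraries. Since the runs were chosen by their median in these same libraries, this separation was close to assured. Copy number was not measured in these samples, and its part in the result was not tested.

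**Figure D2:**
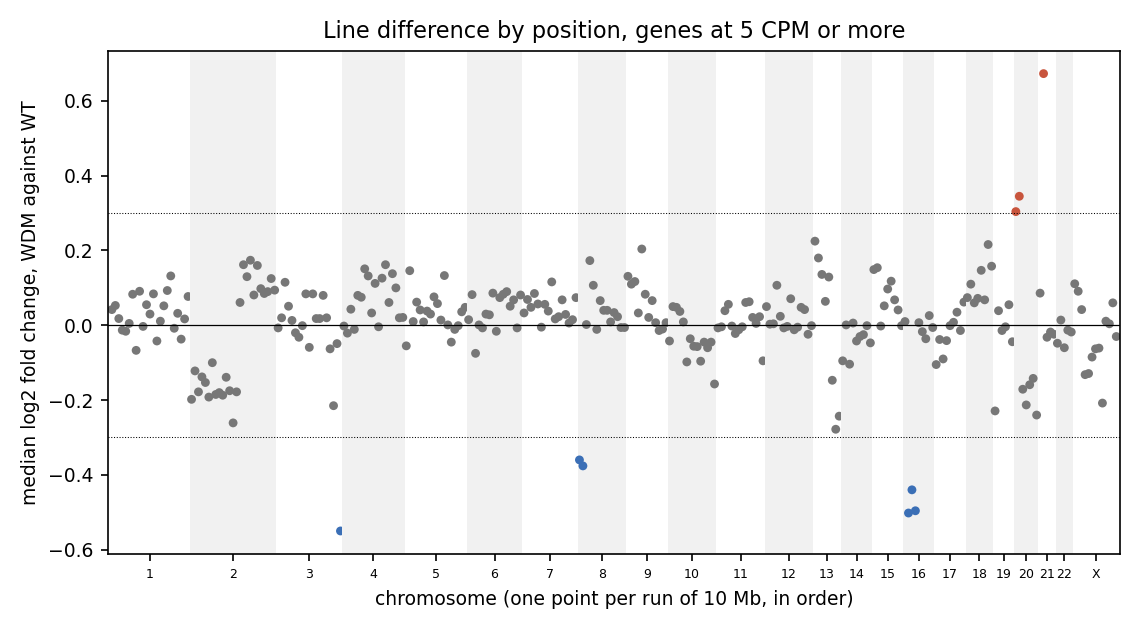
Each point is a run of 10 Mb with at least 10 genes at 5 CPM or more, placed in chromosome order, and its height is the median log2 fold change of WDM against WT in untreated cytosol. Dotted lines mark 0.3 in each direction. Blue points, at the end of chromosome 3, the start of chromosome 8 and in chromosome 16, are the 6 lower runs, and red points, in chromosomes 20 and 21, the 3 higher ones.

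Lineage markers were read next, with the caveat that in bulk RNA fewer cells of a type and less RNA per cell cannot be told apart. The labelled kidney epithelial identity was carried by simple-epithelium genes rather than by genes of mature tubules. Of 16 kidney epithelium genes, 7 reached 5 CPM in either line and 6 had 3 counts or fewer in all 6 libraries. The cadherin CDH16 was at 0 in both lines, and PAX8, a transcription factor of kidney tubules, had means under 0.1 CPM. The list's summed level was 661 to 683 CPM in WT and 489 to 507 CPM in WDM. Of 9 members tested, 4 were lower and 0 higher in WDM, 44.4% called against 9.78% over all genes, with a median of -0.37. KRT19 had 78.1, 85.3 and 90.3 CPM in WT and 46.2, 44.1 and 43.6 CPM in WDM (log2 fold change -0.96, SE 0.151, edgeR adjusted p 0.000272). KRT8 had 147, 164 and 164 CPM in WT and 102, 106 and 108 CPM in WDM (log2 fold change -0.62, SE 0.108, edgeR adjusted p 0.000585), and its filament partner KRT18 had 119.8, 127 and 137 CPM in WT and 94.6, 90.5 and 89.6 CPM in WDM (log2 fold change -0.52, SE 0.105, edgeR adjusted p 0.00231). CLU, a secreted chaperone, was lower at log2 -0.55. Further epithelial genes were not called, EPCAM with 130.3, 127 and 116 CPM in WT and 112, 103 and 104 CPM in WDM (log2 -0.26) and CDH1, E-cadherin, with 8.97, 10.5 and 9.84 CPM in WT and 7.81, 7.14 and 8.40 CPM in WDM (log2 -0.37). All 5 keratins tested had a negative log2 fold change, and 4 were called lower.

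Few genes of the early nephron were called. Of 15 nephron progenitor genes tested, 3 were higher and 0 lower in WDM, 20% called against 9.78% over all genes, with a median of 0.18. Of the 15, 10 had a positive and 5 a negative log2 fold change. The fit of the 6 untreated libraries alone called 4 higher and 1 lower. MEOX2, a mesenchymal homeobox factor, had 1.18, 0.526 and 1.25 CPM in WT and 6.97, 9.94 and 8.92 CPM in WDM (log2 fold change 3.06, SE 0.332, edgeR adjusted p 1.86e-06). TMEM100, a membrane protein, had 5.32, 5.26 and 6.27 CPM in WT and 13.3, 12.4 and 11.4 CPM in WDM (log2 fold change 1.10, SE 0.176, edgeR adjusted p 0.000234). HOXC11, a patterning factor of the hindlimb and kidney field, had 4.34, 5.16 and 4.05 CPM in WT and 23.8, 20.8 and 18.1 CPM in WDM (log2 fold change 2.18, SE 0.145, edgeR adjusted p 1.08e-09). Defining members of the list were low and not called: SIX2 had 1.18, 1.37 and 1.83 CPM in WT and 1.67, 1.62 and 1.84 CPM in WDM, and PAX2 had 3.25, 2.32 and 3.38 CPM in WT and 3.42, 4.42 and 3.59 CPM in WDM. The lines overlapped for SIX2 and did not for PAX2. The list's summed level ranged from 168 to 184 CPM in WT and from 197 to 216 CPM in WDM.

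Transcription factors that pattern the body axis were more often higher than lower in WDM. Of 23 HOX genes tested, 6 were higher and 0 lower (26.1% called, median 0.16), and the same 6 were kept when any 1 library was dropped. HOXD3 had 18.9, 20.3 and 17.4 CPM in WT and 32.4, 36.4 and 33.9 CPM in WDM (log2 fold change 0.82, SE 0.0961, edgeR adjusted p 4.59e-06). HOXB3 had 22.8, 17.5 and 21.5 CPM in WT and 35.6, 38.4 and 34.6 CPM in WDM (log2 fold change 0.78, SE 0.130, edgeR adjusted p 0.000368), and HOXD10 had 62.9, 56.3 and 59.5 CPM in WT and 95.3, 97.5 and 85.9 CPM in WDM (log2 fold change 0.61, SE 0.115, edgeR adjusted p 0.0013); part of its exons overlaps another gene on its strand. The remaining called genes, HOXC4 (log2 0.53) and HOXD13 (log2 0.43), are named after their values were seen. The HOXD genes lie on the part of chromosome 2 whose runs had positive medians in untreated cells. HOXD3 had a log2 fold change of 0.14 with tetracycline, where it was not called, and 0.39 with arsenite, where it was called higher. HOXA genes had 0 calls in 8 tested, and HOXA11 had 41.2, 42.0 and 40.3 CPM in WT and 37.1, 36.2 and 32.1 CPM in WDM (log2 -0.26, edgeR adjusted p 0.0906). Of 83 other homeobox factors tested, 7 were higher and 2 lower, or 10.8% called, near the 9.78% over all genes. Of the 83, 66 had a positive log2 fold change (median 0.19). DLX1, a forebrain and craniofacial factor, PAX9 and ISL1, a LIM factor of motor neurons and heart, were higher by log2 0.77, 0.74 and 1.23. MEIS3, a HOX cofactor, was lower at log2 -0.96.

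Neuronal genes moved in both directions. Of 18 tested, 1 was higher and 3 lower (22.2% called against 9.78% over all genes), with a median of -0.26. The summed level of the list was 994 to 1029 CPM in WT and 963 to 989 CPM in WDM. SYT1, the calcium sensor of vesicle release, had 6.80, 5.68 and 7.62 CPM in WT and 42.3, 50.0 and 38.4 CPM in WDM (log2 fold change 2.66, SE 0.195, edgeR adjusted p 9.78e-09). SYP, a synaptic vesicle membrane protein, had 38.0, 42.4 and 41.4 CPM in WT and 18.8, 17.7 and 18.6 CPM in WDM (log2 fold change -1.18, SE 0.110, edgeR adjusted p 2.04e-07), and INA, a neuronal intermediate filament, had 17.5, 14.8 and 17.9 CPM in WT and 10.2, 9.05 and 9.18 CPM in WDM (log2 fold change -0.85, SE 0.202, edgeR adjusted p 0.00895). NEFL, a neurofilament subunit, had 159, 177 and 169 CPM in WT and 196, 195 and 189 CPM in WDM and was not called (log2 0.16). Vesicle genes thus rose and fell within the same list. Markers of other cell types were sparse. Of 25 skeletal muscle genes, 4 reached 5 CPM, and MYOD1 and DES were under 0.6 CPM on average in both lines. SSPN, a muscle dystrophin-complex protein, was higher, with 2.46, 2.95 and 2.61 CPM in WT and 4.81, 5.52 and 6.21 CPM in WDM (log2 fold change 1.00, SE 0.202, edgeR adjusted p 0.00219). No blood cell gene of 11 reached 5 CPM, and of 11 endothelial genes 1 did, the VEGF receptor FLT1 (55.1, 48.8 and 50.0 CPM in WT and 76.8, 72.2 and 71.3 CPM in WDM, log2 0.48). Of 8 neural crest and glia genes tested, 1 was higher and 0 lower (12.5% called, median 0.08), and 3 had a negative log2 fold change. The called gene, EDNRB, an endothelin receptor of the neural crest, had 1.08, 1.26 and 1.35 CPM in WT and 5.58, 5.52 and 4.90 CPM in WDM (log2 fold change 2.07, SE 0.278, edgeR adjusted p 2.77e-05).

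Developmental signalling pathways differed at few genes each. In the Notch pathway, where membrane ligands activate receptors on neighbouring cells, 3 of 26 genes were higher and 0 lower. That is 11.5% called, near the 9.78% over all genes, and 22 of 26 had a positive log2 fold change (median 0.21). The ligands JAG1 and JAG2 had 98.3, 100.4 and 81.1 CPM in WT and 132, 132 and 128 CPM in WDM and 72.9, 71.8 and 72.5 CPM in WT and 101, 108 and 94.5 CPM in WDM, respectively, at log2 0.46 and 0.45. JAG1 lies on chromosome 20 in a stretch that was higher as a whole. The receptor genes NOTCH1 and NOTCH2 had log2 fold changes of 0.05 and 0.19 and were not called. Of 29 BMP and TGF-beta receptors and target genes, 25 had a positive log2 fold change (median 0.21). Of the 29, 4 were higher and 0 lower, or 13.8% called against 9.78% over all genes. Of these calls only that of SMAD9, a transducer of BMP signals (65.3, 59.0 and 56.1 CPM in WT and 95.5, 96.7 and 96.0 CPM in WDM, log2 0.64), was kept in every fit with 1 library dropped, and those fits gave 1, 3 and 2, then 1, 2 and 2 calls. Among 31 ligands and antagonists 4 were higher and 1 lower (16.1% called), the last being BMP1, a procollagen protease, at log2 -0.56. That list gave 3, 5 and 2, then 3, 3 and 4 calls with 1 library dropped.

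Growth factor signals gave a similar picture. EGF had 3.45, 3.58 and 3.38 CPM in WT and 16.9, 18.0 and 14.8 CPM in WDM (log2 fold change 2.22, SE 0.140, edgeR adjusted p 5.79e-10). ETV5, a transcription factor induced by FGF and MAPK signalling, had 30.1, 30.8 and 35.5 CPM in WT and 19.2, 19.9 and 23.3 CPM in WDM (log2 fold change -0.67, SE 0.122, edgeR adjusted p 0.000963), and DUSP5, a phosphatase that limits ERK, had 22.4, 22.7 and 28.1 CPM in WT and 13.9, 18.0 and 15.1 CPM in WDM (log2 fold change -0.68, SE 0.125, edgeR adjusted p 0.00105). Both belong to a list of 37 immediate-early and MAPK feedback genes. In that list 3 were higher and 5 lower (21.6% called against 9.78% over all genes, median 0.04). Dropping 1 library gave 4, 6 and 3, then 5, 3 and 5 calls in it, with ETV5 and DUSP5 in each. SFRP1, a secreted WNT inhibitor, had 47.7, 50.3 and 46.3 CPM in WT and 32.7, 28.1 and 33.3 CPM in WDM (log2 fold change -0.65, SE 0.119, edgeR adjusted p 0.00092). Among 28 WNT receptors and targets 2 were higher and 2 lower (14.3% called). That list gave 2, 3 and 2, then 2, 2 and 3 calls with 1 library dropped. No gene was called among 13 Hedgehog pathway genes, 19 YAP and TEAD targets and 13 retinoic acid pathway genes.

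Ion channels and receptors of the cell surface were described by family. Of 48 potassium channel genes tested, 6 were higher and 1 lower in WDM (14.6% called against 9.78% over all genes), and the 6 higher calls were kept when any 1 library was dropped. Beside KCNT2, KCNJ3, an inwardly rectifying channel, had 0.690, 0.210 and 0.289 CPM in WT and 7.04, 7.43 and 7.70 CPM in WDM (log2 fold change 4.14, SE 0.303, edgeR adjusted p 4.28e-09). KCND2, a voltage-gated channel of A-type current, had 6.50, 3.79 and 6.27 CPM in WT and 22.5, 24.3 and 18.3 CPM in WDM (log2 fold change 1.93, SE 0.225, edgeR adjusted p 8.90e-06), and KCNJ8, a pore subunit of ATP-sensitive channels, had 23.6, 20.8 and 21.9 CPM in WT and 45.8, 46.0 and 43.6 CPM in WDM (log2 fold change 0.99, SE 0.125, edgeR adjusted p 1.31e-05). PIEZO2, a mechanosensitive channel, was on the lower side with 9.76, 5.37 and 7.72 CPM in WT and 1.32, 2.06 and 1.23 CPM in WDM (log2 fold change -2.33, SE 0.243, edgeR adjusted p 1.05e-06), and SCN4B, a sodium channel beta subunit, with 7.88, 6.11 and 5.40 CPM in WT and 3.35, 2.65 and 2.45 CPM in WDM (log2 fold change -1.22, SE 0.204, edgeR adjusted p 0.000377). Of 45 neurotransmitter receptor genes 4 were higher and 5 lower (20% called against 9.78% over all genes). That list gave 6, 6 and 4, then 6, 5 and 5 calls when 1 library was dropped. For the GPR and ADGR receptors the counts were 3 and 6 of 43 (20.9% called), and 4, 3 and 7, then 5, 2 and 3 calls with 1 library dropped.

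Adhesion molecules were exchanged rather than shifted as a set. Among 17 non-clustered protocadherins and large cadherins, 3 were higher and 3 lower (35.3% called against 9.78% over all genes, median 0.01). PCDH17 had 0.788, 0.737 and 0.579 CPM in WT and 22.2, 20.0 and 22.4 CPM in WDM (log2 fold change 4.89, SE 0.357, edgeR adjusted p 9.78e-09), PCDH10 had 1.97, 1.47 and 1.06 CPM in WT and 21.8, 22.6 and 21.7 CPM in WDM (log2 fold change 3.83, SE 0.202, edgeR adjusted p 3.45e-11), and PCDH15 was higher by log2 1.91. All 3 are adhesion proteins of the nervous system or inner ear. PCDH19, chosen after its values were seen, had 5.03, 3.90 and 3.96 CPM in WT and 0.767, 0.368 and 0.437 CPM in WDM (log2 fold change -3.02, SE 0.471, edgeR adjusted p 0.000221). In a list of 45 adhesion and junction genes, 4 were higher and 4 lower (17.8% called). That list gave 6, 6 and 5, then 6, 6 and 5 calls with 1 library dropped. CDH3, P-cadherin, and CDH7 were higher by log2 1.00 and 0.73, and CLDN1, a tight junction protein, was lower at -0.93.

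The extracellular matrix showed the same mixed pattern. Of 30 collagen genes, 5 were higher and 3 lower (26.7% called against 9.78% over all genes, median 0.10). The same numbers were found when any 1 library was dropped. COL5A2, a fibrillar collagen chain, had 5.81, 5.68 and 4.54 CPM in WT and 36.0, 38.0 and 39.4 CPM in WDM (log2 fold change 2.79, SE 0.125, edgeR adjusted p 3.67e-12). COL2A1, the main cartilage collagen, had 68.7, 66.8 and 65.6 CPM in WT and 177, 171 and 172 CPM in WDM (log2 fold change 1.33, SE 0.0857, edgeR adjusted p 7.66e-10). COL23A1 and COL3A1 were higher by log2 2.58 and 1.46. COL12A1 had 12.5, 8.21 and 8.88 CPM in WT and 3.35, 3.53 and 2.89 CPM in WDM (log2 fold change -1.63, SE 0.226, edgeR adjusted p 4.08e-05), and COL9A2 had 6.80, 7.58 and 7.62 CPM in WT and 2.37, 2.50 and 2.01 CPM in WDM (log2 fold change -1.70, SE 0.218, edgeR adjusted p 1.67e-05). Of 54 matrix glycoproteins and proteoglycans, 4 were higher and 7 lower (20.4% called, median 0.01). FBN1, the main protein of microfibrils, had 83.0, 72.1 and 65.7 CPM in WT and 35.9, 34.2 and 34.6 CPM in WDM (log2 fold change -1.11, SE 0.0991, edgeR adjusted p 1.05e-07), and EFEMP1, a fibulin, had 15.1, 15.8 and 15.7 CPM in WT and 24.9, 25.5 and 21.5 CPM in WDM (log2 fold change 0.59, SE 0.128, edgeR adjusted p 0.00417). Median changes near 0 thus went with single members that differed severalfold in opposite directions.

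**Figure D3:**
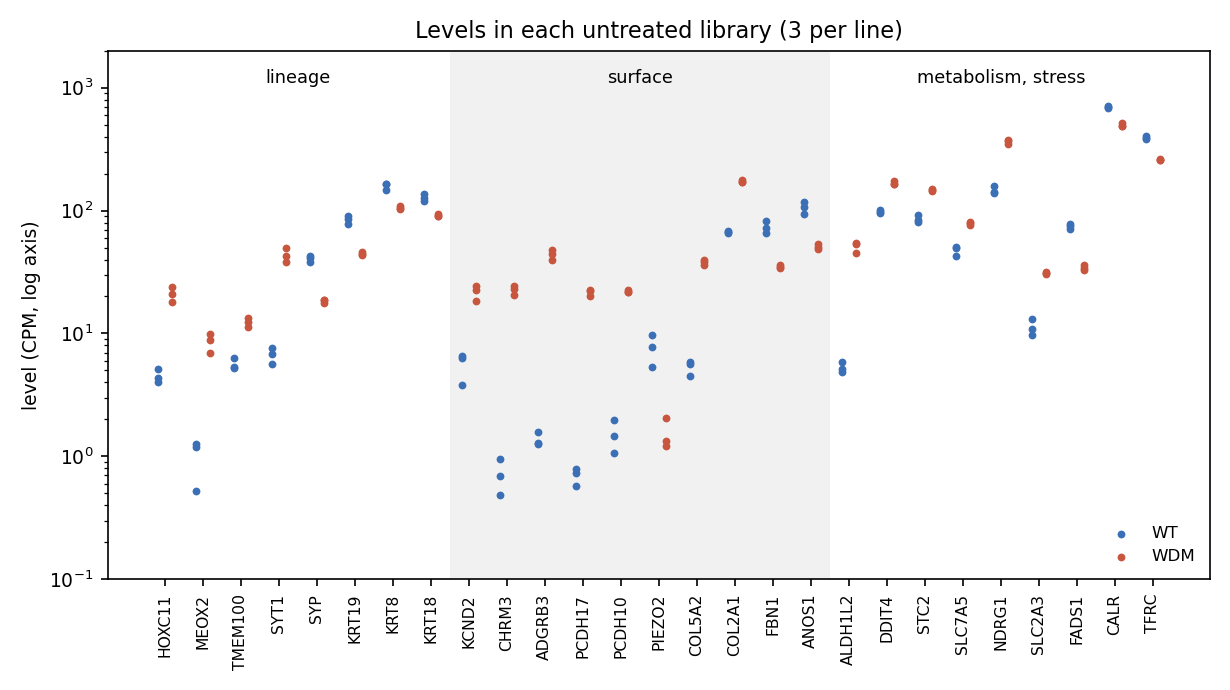
Levels (CPM, log axis) of 27 genes in each untreated library, with 3 blue points for WT and 3 red points for WDM, grouped as lineage, surface and matrix, and metabolism and stress genes. Libraries of a line lie close together and the lines do not overlap for any gene shown, from CHRM3 (under 1 CPM in WT, above 20 in WDM) to KRT18. Lack of overlap was one of the conditions by which genes were picked by rule.

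Immune genes that differed were few in number and went both ways. IFI16, a sensor of intracellular DNA, had 0.493, 0.316 and 0.0965 CPM in WT and 11.7, 12.6 and 14.1 CPM in WDM (log2 fold change 5.33, SE 0.345, edgeR adjusted p 8.19e-10). Of 31 interferon and antiviral genes, 4 were higher and 2 lower (19.4% called against 9.78% over all genes, median 0.05), but IFI16 was the only one called in every fit with 1 library dropped; those fits gave 6, 3 and 1, then 3, 2 and 2 calls. Of 22 antigen presentation genes, 1 was higher and 2 lower (13.6% called, median -0.04). HLA-B, a class I antigen-presenting molecule, had 114, 118 and 115 CPM in WT and 74.1, 72.9 and 72.0 CPM in WDM (log2 fold change -0.70, SE 0.0925, edgeR adjusted p 2.39e-05), whereas HLA-C had a log2 fold change of -0.04 and was not called. Reads of HLA genes can be split between similar copies, and part of the HLA-B exons overlaps another gene on its strand. MICB, a stress-induced ligand of natural killer cells, had 15.1, 14.4 and 11.9 CPM in WT and 27.1, 25.0 and 25.0 CPM in WDM (log2 fold change 0.86, SE 0.118, edgeR adjusted p 3.29e-05). TNFRSF10D, a decoy receptor for the death ligand TRAIL, had 92.1, 99.0 and 103 CPM in WT and 46.9, 42.1 and 42.0 CPM in WDM (log2 fold change -1.20, SE 0.148, edgeR adjusted p 1.69e-05), and BAX, a pore-forming apoptosis protein, had 26.4, 26.6 and 33.5 CPM in WT and 18.7, 19.7 and 16.4 CPM in WDM (log2 fold change -0.70, SE 0.143, edgeR adjusted p 0.00268). IL1RAP and TNFRSF12A, both cytokine receptors, were lower at log2 -0.60 and -0.69.

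Genes of the integrated stress response, which phosphorylation of eIF2 induces largely through the transcription factor ATF4, were higher more often than any other pathway list with at least 20 tested members. Of 36 tested, 10 were higher and 1 lower in WDM, 30.6% called against 9.78% over all genes, and 32 of 36 had a positive log2 fold change (median 0.23). In every fit with 1 library dropped 6 of the higher calls were kept, and all 10 were also called higher in the tetracycline and the arsenite libraries. ALDH1L2, a mitochondrial folate enzyme, had 5.91, 4.84 and 5.12 CPM in WT and 45.3, 54.4 and 53.1 CPM in WDM (log2 fold change 3.23, SE 0.238, edgeR adjusted p 4.25e-08). DDIT4, an inhibitor of mTORC1, had 95.3, 101 and 98.3 CPM in WT and 165, 173 and 166 CPM in WDM (log2 fold change 0.74, SE 0.118, edgeR adjusted p 0.000221). STC2, a secreted glycoprotein, had 92.3, 84.1 and 81.5 CPM in WT and 144, 149.5 and 146 CPM in WDM (log2 fold change 0.74, SE 0.103, edgeR adjusted p 4.59e-05). SLC7A5, a transporter of large neutral amino acids, had 51.0, 43.0 and 49.5 CPM in WT and 77.1, 80.4 and 79.2 CPM in WDM (log2 fold change 0.69, SE 0.116, edgeR adjusted p 0.000425), and SESN2, a leucine sensor, and PSAT1, of serine synthesis, were higher by log2 0.49 and 0.49. ATF4 itself had 704, 725 and 727 CPM in WT and 878, 893 and 875 CPM in WDM and was not called (log2 fold change 0.26, SE 0.105, edgeR adjusted p 0.128), although its libraries did not overlap. DDIT3, the transcription factor CHOP, had 21.6, 22.4 and 23.3 CPM in WT and 24.1, 25.3 and 26.8 CPM in WDM (log2 0.14, not called), so neither of these regulators passed the test while several of their targets did. ASNS, another target, had at most 1 count per library and, as for TIA1, missing counts and missing expression cannot be told apart.

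Metabolic genes were called in both directions. In a list of 34 glycolysis and hypoxia genes 4 were higher and 0 lower, with a median of 0.01. The share called was 11.8%, near the 9.78% over all genes (3, 2 and 3, then 3, 2 and 3 calls with 1 library dropped). NDRG1, induced by hypoxia and differentiation, had 158, 141 and 139.6 CPM in WT and 349, 373 and 371 CPM in WDM (log2 fold change 1.28, SE 0.129, edgeR adjusted p 8.09e-07). SLC2A3, the glucose transporter GLUT3, had 13.1, 10.9 and 9.65 CPM in WT and 30.6, 31.5 and 31.1 CPM in WDM (log2 fold change 1.43, SE 0.131, edgeR adjusted p 1.44e-07). Among 37 genes of fatty acid synthesis and oxidation 0 were higher and 5 lower (3, 3 and 4, then 3, 3 and 3 calls with 1 library dropped). The share called was 13.5%, against 9.78% over all genes. The median was 0.03, and 22 of the 37 had a positive log2 fold change. In the fit of the 6 untreated libraries alone, 9 were called higher and 7 lower. FADS1, the delta-5 desaturase of polyunsaturated fatty acids, had 78.0, 74.8 and 70.7 CPM in WT and 35.9, 32.7 and 34.0 CPM in WDM (log2 fold change -1.16, SE 0.0829, edgeR adjusted p 3.13e-09), and its neighbour FADS2, the delta-6 desaturase, had 119, 124 and 121 CPM in WT and 81.5, 84.4 and 81.6 CPM in WDM (log2 fold change -0.59, SE 0.0804, edgeR adjusted p 3.41e-05). ACLY, which makes cytosolic acetyl-CoA, had 634, 683 and 719 CPM in WT and 504, 511 and 559 CPM in WDM (log2 fold change -0.41, SE 0.0926, edgeR adjusted p 0.0065). Of 29 sterol genes 3 were lower and 0 higher (10.3% called against 9.78% over all genes, median -0.13). FDFT1 and ABCG1, a cholesterol exporter, were lower by log2 -0.49 and -0.61. TFRC, the transferrin receptor, had 402, 379.5 and 387 CPM in WT and 258, 260.5 and 261 CPM in WDM (log2 fold change -0.62, SE 0.118, edgeR adjusted p 0.00132). CBS, of transsulfuration, was higher by log2 0.54. Of 248 solute carriers, 19 were higher and 17 lower (14.5% called), and 6 and 8 of these calls were kept in every fit with 1 library dropped, which gave 24, 18 and 17, then 21, 21 and 17 calls. SLC43A1, an amino acid transporter, was higher by log2 0.82, and SLC1A2, a glutamate transporter, was lower, with 10.2, 6.84 and 7.82 CPM in WT and 3.00, 1.91 and 2.27 CPM in WDM (log2 fold change -1.81, SE 0.234, edgeR adjusted p 1.73e-05).

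Among genes of protein folding and degradation more were called lower than higher, by small amounts. Of 31 proteasome subunits tested, 30 had a negative log2 fold change (median -0.25). Of the 31, 7 were called lower and 0 higher, or 22.6% called against 9.78% over all genes. The ATPase subunit PSMC4 had 276, 301 and 319 CPM in WT and 225, 222 and 223 CPM in WDM (log2 fold change -0.45, SE 0.104, edgeR adjusted p 0.00646), and PSMC5 had 83.3, 87.3 and 94.0 CPM in WT and 68.5, 65.0 and 66.2 CPM in WDM (log2 fold change -0.44, SE 0.0963, edgeR adjusted p 0.00451). These 2 were the only calls kept in every fit with 1 library dropped, which gave 5, 3 and 2, then 5, 3 and 4 calls. A fit of the 6 untreated libraries alone called 27 lower. Of 35 heat shock and unfolded protein response genes, 7 were lower and 2 higher (25.7% called, median -0.12), and 12 had a positive log2 fold change. That list gave 6, 4 and 2, then 5, 4 and 4 calls when 1 library was dropped. Of the lower calls, 2 were kept in every such fit. CALR, a chaperone of the endoplasmic reticulum, had 680.3, 700.5 and 708 CPM in WT and 517, 484 and 485 CPM in WDM (log2 fold change -0.53, SE 0.115, edgeR adjusted p 0.00442). HSPB8, a small heat shock protein chosen after its values were seen, had 3.06, 3.37 and 2.80 CPM in WT and 0.697, 0.442 and 1.31 CPM in WDM (log2 fold change -1.98, SE 0.319, edgeR adjusted p 0.000258). Its level lay below the 5 CPM asked of genes named by rule. Mutations of HSPB8 are known in distal myopathy and motor neuropathy. It was the only one of 24 tested myopathy and protein quality control genes to be called. That is 4.17% of the list, a smaller share than the 9.78% over all genes.

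Few ribosomal protein genes passed the test in the fit of all 18 cytosol libraries. Of 80 ribosomal protein genes 74 had a negative log2 fold change, with a median of -0.14. Of these 80, 4 were called lower and 0 higher, or 5%, near the 5.6% of all genes that were called lower. In the fit of the 6 untreated libraries alone 47 were called lower and 0 higher. That fit called 2801 genes lower, of 15158 that it tested. RPL22L1 had 45.3, 40.2 and 41.6 CPM in WT and 26.6, 26.6 and 23.4 CPM in WDM (log2 fold change -0.76, SE 0.121, edgeR adjusted p 0.0002). RPL35A had 661, 674 and 664 CPM in WT and 448, 455 and 463 CPM in WDM (log2 fold change -0.58, SE 0.113, edgeR adjusted p 0.00151), and RPS15A had 520.5, 514 and 496 CPM in WT and 367, 357 and 383 CPM in WDM (log2 fold change -0.50, SE 0.111, edgeR adjusted p 0.00514); the last 2 lie in shifted runs of chromosomes 3 and 16. RPS15 was lower at log2 -0.45. Among 64 nuclear-encoded respiratory chain subunits 1 was higher and 5 lower (9.38% called against 9.78% over all genes, median -0.11). None of the 13 mRNAs of the mitochondrial genome was called (median 0.07). Of the subunits, NDUFAB1 and UQCRC2 kept their calls in every fit with 1 library dropped, which gave 3, 2 and 2, then 3, 3 and 2 calls. Scaling by library size alone moved the median of all genes by 0.04 and that of the ribosomal proteins to -0.11.

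Histone and cell cycle genes were more often lower. Of 51 replication-dependent histone genes, 10 were lower and 1 higher (21.6% called against 9.78% over all genes, median -0.16). Beside H3C7, H2AC16 had 34.6, 38.3 and 38.9 CPM in WT and 18.0, 17.5 and 16.1 CPM in WDM (log2 fold change -1.15, SE 0.114, edgeR adjusted p 5.39e-07) and H2AC8 had 33.3, 31.8 and 36.6 CPM in WT and 21.5, 20.4 and 18.6 CPM in WDM (log2 fold change -0.78, SE 0.160, edgeR adjusted p 0.00269), while H2BC10 was higher with 1.68, 2.00 and 2.22 CPM in WT and 6.28, 4.79 and 7.00 CPM in WDM (log2 fold change 1.57, SE 0.272, edgeR adjusted p 0.000533). These histone transcripts mostly lack poly(A) tails and are near copies of each other, which makes single values uncertain. The list gave 9, 5 and 5, then 6, 6 and 5 calls with 1 library dropped. In the cell cycle list 6 of 50 genes were lower and 2 higher (16% called, median -0.11). CDK6, a kinase of G1, had 203, 198 and 189 CPM in WT and 328, 335 and 342 CPM in WDM (log2 fold change 0.73, SE 0.0912, edgeR adjusted p 1.10e-05), and CDT1, a replication licensing factor, was higher by log2 0.46. PLK1, a mitotic kinase, and CCNE2, a G1/S cyclin, were lower at log2 -0.46 and -0.57. This list gave 6, 5 and 5, then 5, 5 and 8 calls with 1 library dropped. UHRF1, which keeps DNA methylation through replication, had 165, 175 and 203 CPM in WT and 131, 121 and 124 CPM in WDM (log2 fold change -0.57, SE 0.106, edgeR adjusted p 0.00115).

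In the fit of all 18 cytosol libraries, lists tied to the function of TIA1 held few calls. Of 45 stress granule and P-body components, 1 was higher and 2 lower, 6.67% called against 9.78% over all genes, with a median of 0.09 and 2, 1 and 1, then 1, 2 and 1 calls when 1 library was dropped. DDX1, an RNA helicase found in granules, had 199, 204 and 206 CPM in WT and 146, 141 and 152 CPM in WDM (log2 fold change -0.51, SE 0.0778, edgeR adjusted p 0.000136). Of 51 splicing and RNA-binding regulators 2 were lower and 0 higher (median -0.01), or 1, 2 and 1, then 2, 1 and 1 with 1 library dropped, and PTBP2, the neuronal polypyrimidine tract-binding protein, had 122, 115 and 109 CPM in WT and 90.5, 95.4 and 93.3 CPM in WDM (log2 fold change -0.35, SE 0.0762, edgeR adjusted p 0.00485). In the fit of all 18 cytosol libraries both lists thus held a smaller share of calls than all genes, 6.67% and 3.92% against 9.78%. The fit of the 6 untreated libraries alone called 12 higher and 7 lower among stress granule and P-body components. Among splicing and RNA-binding regulators it called 12 higher and 13 lower. Over all genes it called 5463, of 15158 that it tested. In that fit both lists held a larger share of calls than all genes, so the order of the shares depended on the fit.

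**Figure D4:**
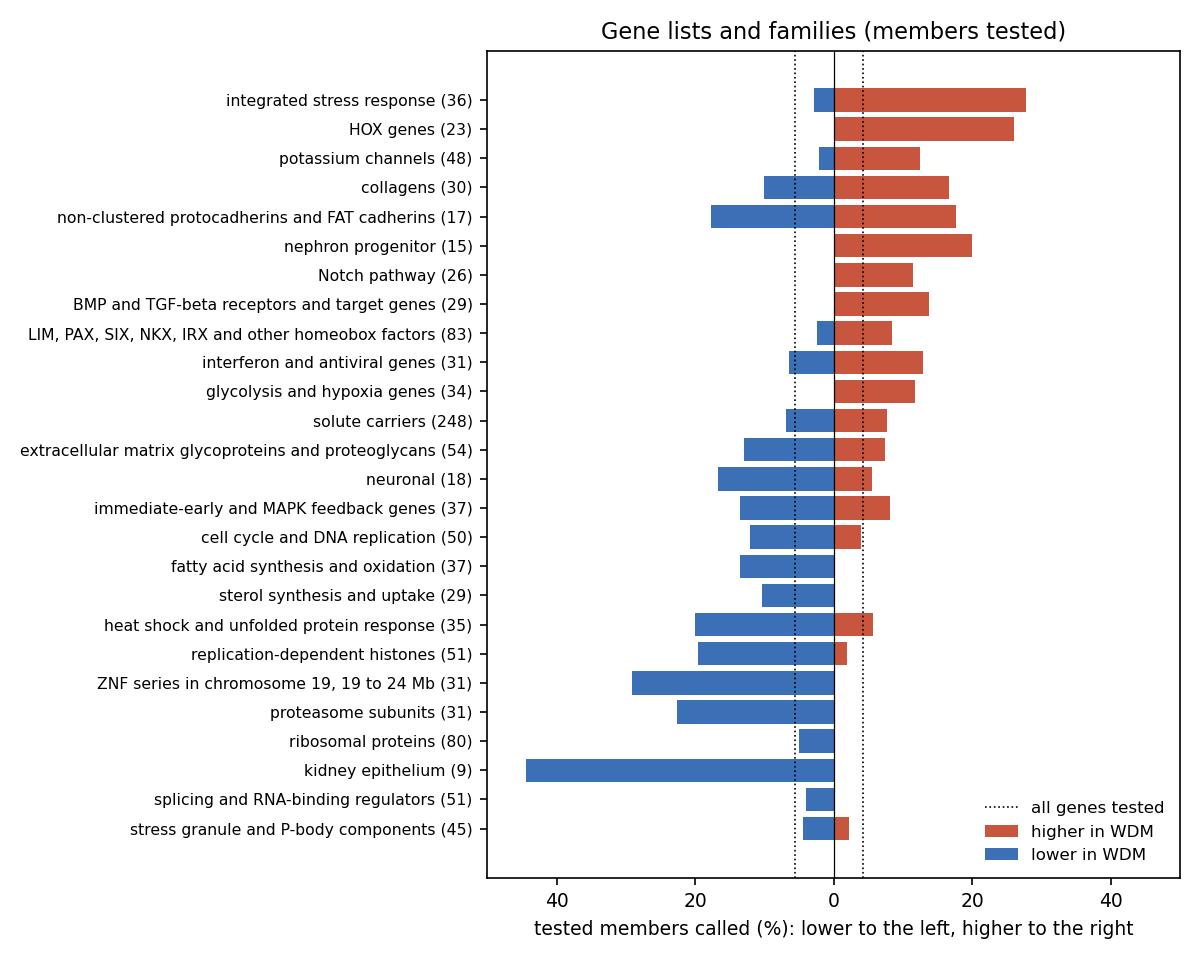
Bars show the share of tested members (number in parentheses) of 26 lists and families called higher (red, right) or lower (blue, left) in WDM, and dotted lines show the same shares over all 16670 genes, 4.19% and 5.6%. Integrated stress response and HOX genes lean to the higher side, and keratin-rich kidney epithelium, the chromosome 19 zinc-finger cluster and the proteasome to the lower side.

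Long noncoding RNAs were described by class. Of 287 intergenic RNAs of the LINC series, 23 were higher and 9 lower (11.1% called against 9.78% over all genes). Of the 287, 190 had a positive log2 fold change (median 0.23). Dropping 1 library gave 30, 24 and 21, then 28, 25 and 28 calls. LINC00839 had 13.5, 13.2 and 13.6 CPM in WT and 2.93, 2.58 and 2.10 CPM in WDM (log2 fold change -2.42, SE 0.200, edgeR adjusted p 2.92e-08). Over all 2575 long noncoding RNAs tested, 7.15% were called (median 0.057), compared with 10.7% of 13068 protein-coding genes (median near 0). With the genes divided by mean CPM into 5 equal groups, 5.7% of the lowest group were called and 10.0% to 11.6% of the others.

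The same line difference was then read in the cytosol libraries of cells given tetracycline, and of cells given tetracycline and arsenite, which share no library with the untreated comparison but are the same 2 lines. In those comparisons 12.6% and 10.4% of the 16670 genes were called. Of the 1631 genes called in untreated cells, 1581 (96.9%) had the same sign with tetracycline and 1583 (97.1%) with arsenite. With tetracycline 1052 of them were called in the same direction and 0 in the opposite direction, and with arsenite 949 and 0. All 3 comparisons called 849 genes in the same direction (52.1% of 1631), 355 higher and 494 lower, and 479 were called only in untreated cells, without a test of the difference. DOK6 was higher by log2 6.30 untreated, 6.92 with tetracycline and 7.17 with arsenite. STS was lower with log2 fold changes of -4.86, -4.37 and -5.17, and ALDH1L2 was higher by 3.23, 3.05 and 2.99. ANOS1 differed by -1.09 untreated and by -2.66 and -2.79 in the other 2 conditions.

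Some groups kept their difference and others did not. The kidney epithelium list had the same number of lower calls, 4, in each condition, and 1 higher call with tetracycline, while its median was -0.37 untreated, -0.30 with tetracycline and -0.10 with arsenite. The 9 lower zinc-finger genes of the chromosome 19 cluster were called lower in all 3, among 14 lower calls with tetracycline and 11 with arsenite. The chromosome 16 runs had medians of -0.492, -0.492 and -0.500 with tetracycline, close to the untreated values. On chromosome 20 the run from 10 to 20 Mb had a median of 0.345 untreated and 0.063 in each of the other conditions. BMP and TGF-beta receptors and targets, with 4 higher calls untreated, had 0 higher calls and 2 lower with tetracycline and 0 and 1 with arsenite. SMAD9 and JAG1 had log2 fold changes of 0.22 and 0.16 with tetracycline and were not called there. COL9A2 had -1.70 untreated and -0.14 with tetracycline, where it was not called. Replication-dependent histones had 10 lower calls untreated, 2 with tetracycline and 4 with arsenite. Differences between conditions were not tested for these lists and genes.

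**Figure D5:**
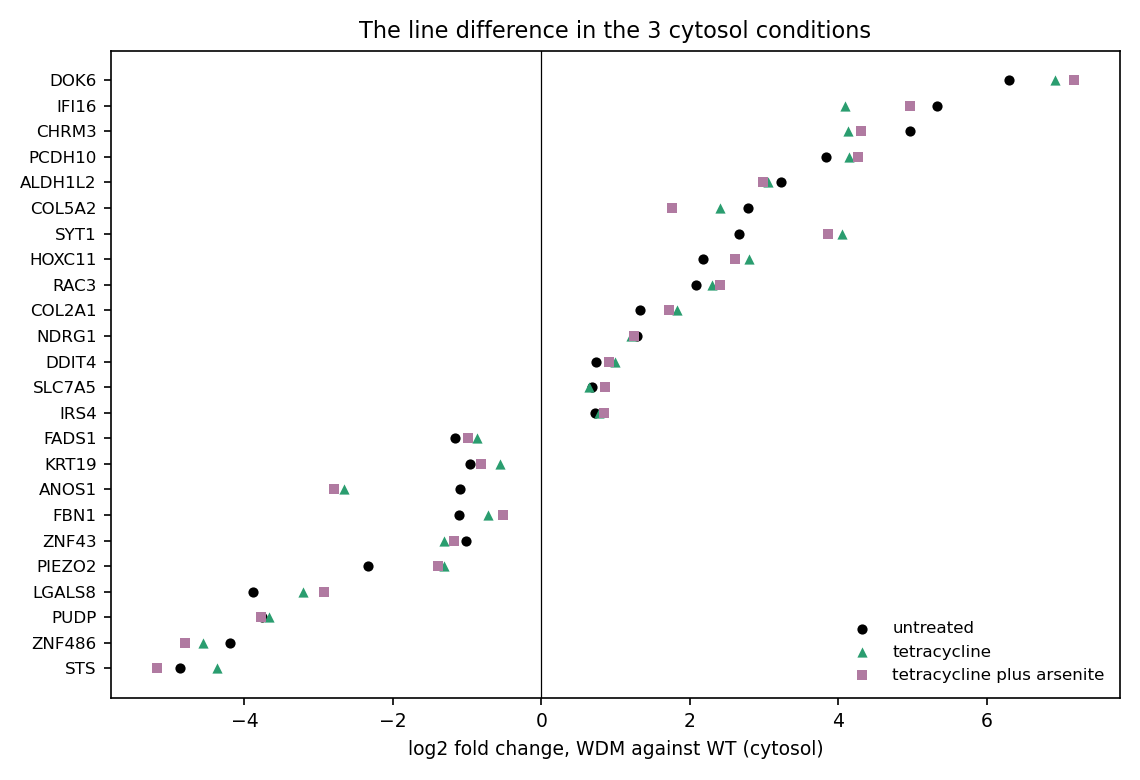
Log2 fold change of WDM against WT in cytosol for 24 named genes, untreated (black circles), with tetracycline (green triangles) and with tetracycline plus arsenite (purple squares). All 3 marks lie on the same side of 0 for every gene shown, and the marks of ANOS1 and SYT1 are among those spread more widely.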

How the data were processed

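The deposited table holds raw counts per gene for 60664 Ensembl genes, made by the authors from stranded total RNA libraries after removal of ribosomal RNA, per the labels' protocols; these counts were not normalised before deposit. The submitters' processing notes name Trimmomatic, STAR, Picard, featureCounts and GRCh38, and give no version. Symbols and coordinates are those of the file, and 60463 gene IDs were also found in GENCODE release 44.

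Counts of the 18 cytosol libraries were fitted with edgeR 4.0.16 (R 4.3.3; filterByExpr with a minimum count of 10 and a minimum total of 15; TMM factors; robust quasi-likelihood test), and Benjamini-Hochberg adjustment ran over all 16670 tested genes, with a threshold of 0.05. The 3 libraries of a line formed a group, and WDM was compared with WT. Counts of replicates differed by more than sampling noise (chi-square per degree of freedom 1.63 to 3.65). The fit was tested on simulated counts. CPM values use the total count of all genes. Medians of log2 fold changes over 10 Mb runs used genes at 5 CPM or more, and the intervals of ratios are exact binomial ones and cover counting error only. Alternatives were other scalings, no filter, the 6 untreated libraries alone, a replicate block, each library left out and DESeq2 1.42.0.

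Genes were named by rule: TIAL1 and TIA1; up to 4 higher and 4 lower called members of each list, without overlap between lines and with at least 5 CPM in the higher line, by absolute log2 fold change; over all genes by the same conditions the 12 largest in each direction by log2 fold change and the 10 largest by difference of CPM; and lineage markers. The samples, lists and rules were chosen with earlier results of these data known. Regulators, receptors, paralogs and chromosome neighbours given as not called were chosen after their values were seen. No column of per-sample values was left unmapped (0 columns). Figures were drawn with matplotlib 3.10.9.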

Additional observations from a re-analysis of the deposited data

Results flagged for a closer look

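Line differences that had opposite signs in separate conditions, without overlap between the lines in either, were flagged for 2 genes. Opposite signs alone were more common. Of the 1631 genes called in untreated cells, 1581 had the same sign with tetracycline and 1583 with arsenite. FZD7, a receptor of WNT signalling, had a log2 fold change of 0.42 in untreated cells, with every WDM library above every WT library, and of -0.082 with tetracycline plus arsenite, where every WDM library lay below every WT library. GPR85, an orphan receptor of the brain, had -0.607 in untreated cells and 0.347 with tetracycline, again without overlap in either condition. Its call in untreated cells survived in 2 of 6 fits with 1 library dropped. The difference between conditions was not tested for either gene.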

How the results depend on the processing

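The number of genes called was 1631. It was 1619 with relative log expression factors, 1654 with library size alone, 1935 without the low-count filter, 1622 with DESeq2 and 1410 without the genes of the shifted 10 Mb runs, the last chosen after seeing the data. The fit of the 6 untreated libraries alone called 5463; its biological coefficient of variation was 0.0409, against 0.103 over the 18 cytosol libraries. Leaving out 1 library gave 929 to 1212 calls. Calls with a log2 difference of 1 or more in size numbered 405 and 317 to 486 over all alternatives. The higher share of calls was 42.8%, and 49.4% with library size alone and 60.5% without the filter. With the replicate number as a block, 2109 genes were called. Correlations of the deviations of same-numbered libraries were -0.029, -0.042 and -0.064 in untreated cells, which showed no pairing by number among those 6 libraries. Pairing among the other 12 cytosol libraries was not examined. Of 270 named genes tested, 161 kept direction and call in every alternative, 109 lost the call in at least 1, and 0 reversed. Among 89 lists, the medians of 10 changed sign with another scaling, and 14 moved by 0.1 or more in at least 1 alternative. Depth limits genes near 3 counts per library, where counts of 0 do not show absence.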

Other observations

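Receptor enzymes of the membrane, not described above, were mixed in direction. Of 32 receptor tyrosine kinases and phosphatases tested, 4 were higher and 3 lower in WDM (21.9% called against 9.78% over all genes). The median log2 fold change was 0.22. Dropping WT replicates 1, 2 and 3 gave 5, 5 and 5 calls, and dropping WDM replicates 1, 2 and 3 gave 3, 4 and 5. DDR2, a kinase receptor for fibrillar collagen, had 6.21, 6.32 and 6.66 CPM in WT and 16.7, 18.3 and 21.7 CPM in WDM (log2 fold change 1.52, SE 0.165, edgeR adjusted p 1.82e-06). EPHA5, an ephrin receptor of axon guidance, had 17.5, 12.4 and 12.3 CPM in WT and 34.2, 28.9 and 31.2 CPM in WDM (log2 fold change 1.12, SE 0.169, edgeR adjusted p 0.000111). Both genes were higher in every WDM library than in any WT library, as the naming rule required.

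Enzymes and secreted factors of other families gave single differences. CYP4X1, a cytochrome P450 of the brain, had 21.3, 18.7 and 19.5 CPM in WT and 5.37, 4.79 and 6.82 CPM in WDM (log2 fold change -1.85, SE 0.167, edgeR adjusted p 1.16e-07). SERPINF1, the secreted factor PEDF, had 4.34, 4.32 and 5.12 CPM in WT and 18.4, 20.8 and 19.6 CPM in WDM (log2 fold change 2.06, SE 0.247, edgeR adjusted p 9.40e-06). TRIM71, a ubiquitin ligase and RNA-binding protein of early development, had 2.56, 1.47 and 2.41 CPM in WT and 8.30, 8.39 and 9.71 CPM in WDM (log2 fold change 1.98, SE 0.226, edgeR adjusted p 3.38e-06). ABCA3, a lipid transporter, was higher by log2 0.89. All of these calls were kept when any 1 library was dropped. The lines did not overlap for any of them, which was a condition for naming them.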
